A study of Mus musculus with 42 samples.

Results

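Kinesins are motor proteins that use ATP to walk along microtubules or to take their ends apart. One set of family members works in cell division, where it builds the bipolar spindle, moves chromosomes and prepares the midzone for cytokinesis. Another set carries organelles, vesicles and mRNAs through interphase and differentiated cells. In skeletal muscle, precursors leave the cell cycle before they fuse, and conventional kinesin is then known for moving nuclei and mitochondria along the microtubules of the fibre. The family was taken here as every gene symbol of the RNA-seq counts that begins with Kif and a digit, or with Kifc. This gave 44 of 24466 symbols. Of these, 14 were grouped as mitotic motors, 15 as transport motors, 12 as motors with other roles (microtubule end regulation, cilia and signalling), and 3 are not motor genes. The last 3 are Kif1bp, which encodes a KIF1-binding protein, the opposite-strand transcript Kif16bos and the pseudogene Kif4-ps. Kifap3, the non-motor subunit of the Kif3 complex, is not matched by these letters and was read with the transport partners. Cenpe, itself a mitotic kinesin motor, is not matched either. It was read with the mitotic partners and is in no count or share of mitotic motors below.

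RNA was sequenced from 3 kinds of mouse cells. iPax7 cells are myogenic precursors derived from 1 embryonic stem cell line that carries a doxycycline (Dox)-inducible Pax7, and were purified from embryoid bodies as PDGFαR+ Flk-1- cells. The +Dox group (3 libraries) was grown with 0.75 µg/ml Dox as given in the treatment label, in serum medium with basic FGF. The -Dox group (2 libraries) came from the same cells 3 days after Dox was washed out, in the same medium with FGF. Satellite cells (3 libraries), the stem cells of adult muscle, were taken directly from muscle of mice with a Pax7-ZsGreen reporter, and the age of the mice is not given in the sources used here. The libraries of a group were deposited together, and nothing says that they are separate cultures or animals, so the p-values measure the spread between libraries, which may be technical. ATAC-seq and ChIP-seq peak sets from iPax7 cells with Dox and after withdrawal, and ATAC-seq peaks from satellite cells, were used for the promoters.

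Gene counts per library ranged from 39010958 to 54674619. Pax7 had 12759, 14130 and 11610 normalized counts in +Dox, 221 and 270 in -Dox, and 8504, 3926 and 5456 in satellite cells. Myog, a factor of differentiating myocytes, had a mean of 4150 in +Dox and 174963 in -Dox. Reads set aside because they aligned to more than 1 place made up 7.11% to 7.6% of the iPax7 libraries and 23.6% to 30.7% of the satellite cell libraries, so that cell source and library preparation cannot be told apart in comparisons with satellite cells. Satellite cell libraries also held transcripts of other cells of muscle tissue, whose levels stand beside those comparisons below. A normalized count is a count scaled to the library's effective size, and log2 fold changes, standard errors (SE) and adjusted p-values come from edgeR (quasi-likelihood F-test, p adjusted by Benjamini-Hochberg over all 14836 genes past its filter on low counts). Of the 44 kinesin symbols, 38 passed this filter: 13 mitotic, 15 transport, 9 with other roles and Kif1bp. The other 6 were at or near 0. Kif2b, Kif12 and Kif16bos had no count in any library, and Kif19a, Kif27 and Kif4-ps had at most 23.7 normalized counts.

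Promoter sequences are shown first for the mitotic motors, because letters of the cell cycle genes homology region (CHR) recur near their starts. The CHR is a short promoter element of genes that are expressed late in the cell cycle, and it is bound by the MuvB complexes (DREAM in resting cells). The letters searched were TTTGAA, read on both strands (TTCAAA on the other), in the 300 bases from 250 before to 50 after each start in RefSeq on GRCm38.p6. Below are the 120 bases before the start of 4 mitotic motors, the first bases read toward the gene, with TTTGAA or TTCAAA in capitals. Kif11 lies at chr19:37376262-37376381 (plus strand), Kif15 at chr9:122950961-122951080 (plus strand), Kif2c at chr4:117178773-117178892 (minus strand) and Kif22 at chr7:127042421-127042540 (minus strand).
Kif11: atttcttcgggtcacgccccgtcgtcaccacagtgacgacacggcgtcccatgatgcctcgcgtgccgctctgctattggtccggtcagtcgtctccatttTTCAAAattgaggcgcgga
Kif15: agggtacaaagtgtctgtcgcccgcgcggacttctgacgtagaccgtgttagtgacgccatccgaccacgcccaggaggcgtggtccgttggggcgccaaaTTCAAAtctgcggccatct
Kif2c: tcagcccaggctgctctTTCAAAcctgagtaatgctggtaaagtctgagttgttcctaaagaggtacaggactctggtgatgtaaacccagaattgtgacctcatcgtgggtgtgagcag
Kif22: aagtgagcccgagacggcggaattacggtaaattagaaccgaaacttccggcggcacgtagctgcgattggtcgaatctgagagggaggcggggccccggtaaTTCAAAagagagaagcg

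In Kif11 and Kif15 the 6 letters began 19 bases before the start, in Kif22 17 bases and in Kif2c 103 bases before it. In 5 further mitotic motors the letters lay within the first 30 transcribed bases, which are given next, and in Kifc5b they began at base 30. These 5 were chosen for display after their sequences had been seen. Kif18b lies at chr11:102925095-102925124 (minus strand), Kif20b at chr19:34922358-34922387 (plus strand), Kif23 at chr9:61946770-61946799 (minus strand), Kif4 at chrX:100626065-100626094 (plus strand) and Kifc1 at chr17:33890604-33890633 (minus strand).
Kif18b: tagTTTGAAcgcgccgcgccggaagaaggt
Kif20b: gccattgTTTGAATTTGAAaaccgggagga
Kif23: tgTTTGAAatgcgccgggcgggcgcacact
Kif4: ctggcgcctctgggatcaaTTTGAAacttg
Kifc1: aTTCAAAagtggcgggtgtggctgattggc

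For contrast, the same 120 bases before the start are shown for 2 transport motors without these letters, Kif1b at chr4:149307734-149307853 (minus strand) and Kif3a at chr11:53567249-53567368 (plus strand). The Kif1b stretch holds ATTGG, the reverse of CCAAT, at 2 places, and the Kif3a stretch holds it once.
Kif1b: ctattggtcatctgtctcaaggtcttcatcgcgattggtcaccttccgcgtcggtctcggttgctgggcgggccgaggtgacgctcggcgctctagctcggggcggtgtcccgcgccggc
Kif3a: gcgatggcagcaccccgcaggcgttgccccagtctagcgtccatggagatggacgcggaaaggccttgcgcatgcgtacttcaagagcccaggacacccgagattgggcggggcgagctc

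RefSeq listed a promoter for 13 mitotic motors, and 11 of them (84.6%) held TTTGAA on either strand, as did 1 of 10 transport motors, 2 of 10 motors with other roles, and 17.8% of the 17458 promoters of genes in the count data. Between 50 bases before and 30 bases after the start, the letters stood in 9 of the 13 mitotic motors, in 1 of 10 transport motors (Kif1a) and in 4.03% of all promoters. Over the whole 300 bases, the mitotic motors without them were Kif18a and Kif2b. Kifc1 and its near copy Kifc5b were counted as 2 promoters, though both held TTCAAA and ATTGG in a similar layout. CCAAT, the letters bound by the factor NF-Y, stood on either strand in 9 of 13 mitotic motors, 3 of 10 transport motors and 42.1% of all promoters. The partners of the mitotic motors in the spindle and midzone held TTTGAA in 6 of 9 listed promoters, the partners of the transport motors in 1 of 10. A match of 6 letters is a description of the sequence and does not show that a factor is bound.

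Withdrawal of Dox asks what changes in the precursors once Pax7 is no longer induced. Most mitotic motors fell. Of 13 tested, 9 had lower expression in -Dox with an adjusted p under 0.05, and by edgeR, by DESeq2 and at an unadjusted p under 0.05 0 were higher. Over all genes tested, 7.7% changed, 3.04% being lower and 4.66% higher. The log2 fold changes of the 13 ran from -4.41 to -2.59 with a median of -3.59, where the median of all genes was -0.00492. In all 13 the -Dox libraries lay below the +Dox libraries without overlap, which was so in either direction for 45.3% of all genes. Fewer dividing cells and less RNA per cell cannot be told apart in these bulk samples.

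**Figure D1:**
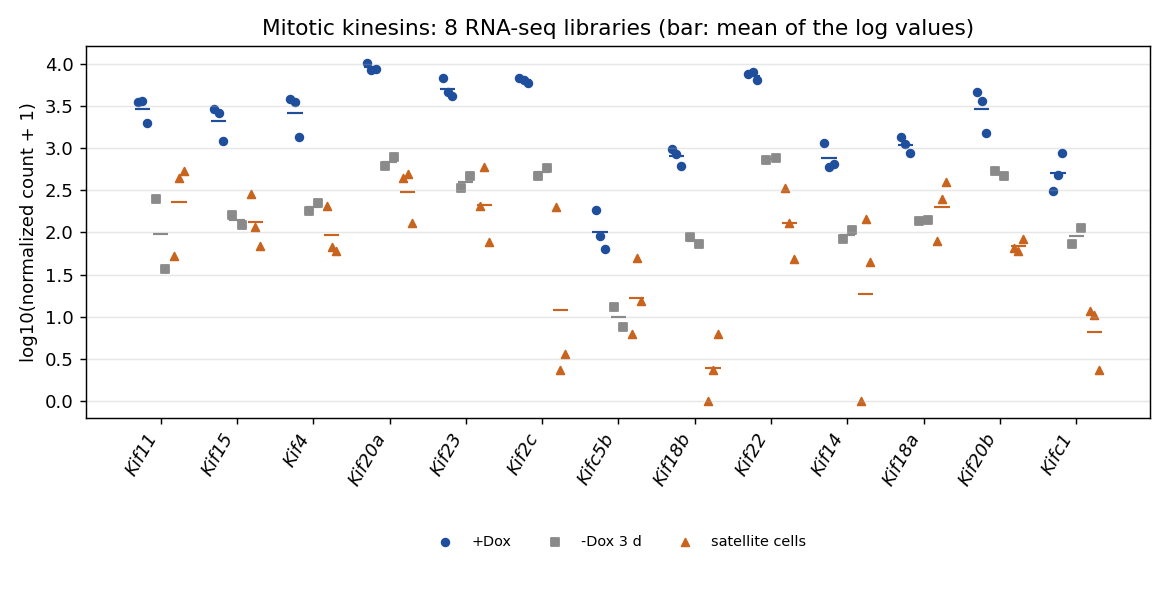
Each point is 1 RNA-seq library, as log10(normalized count + 1), for the 13 mitotic motors tested, ordered by the fold change on Dox withdrawal. Short bars are group means of the log values. In every gene the 3 +Dox libraries (circles) lie above both -Dox libraries (squares) and above the 3 satellite cell libraries (triangles).

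The motors that set up the bipolar spindle and its poles are given first. Kif11 (Eg5) pushes the spindle poles apart by sliding antiparallel microtubules. Its normalized counts were 3524, 3594 and 2013 in +Dox, 251 and 36.0 in -Dox, and 51.3, 442 and 541 in satellite cells. The -Dox libraries differed from each other more than in other mitotic motors but stayed far below +Dox, with a log2 fold change of -4.41 (SE 1.12, adjusted p = 0.0433). Kif15, which can keep spindles bipolar beside Kif11, had 2924, 2644 and 1217 normalized counts in +Dox, 159 and 123 in -Dox, and 288, 117 and 68.6 in satellite cells. The log2 fold change on withdrawal was -4.00 (SE 0.729, adjusted p = 0.00983), the -Dox values lying within the range of the satellite cells. Kifc1, a minus-end motor that focuses the poles, had 314, 475 and 866 in +Dox, 71.7 and 111 in -Dox, and 10.5, 9.38 and 1.32 in satellite cells. Groups did not overlap, but the change of -2.59 (SE 0.887) did not pass (adjusted p = 0.117). Kifc5b, its near copy, had 184, 90.3 and 62.8 in +Dox, 11.9 and 6.46 in -Dox, and 5.27, 48.3 and 14.5 in satellite cells (log2 fold change -3.59, SE 1.44, adjusted p = 0.181). Of the 50-base words in the transcripts of Kifc1, 45.3% also occur in Kifc5b. Reads that aligned to more than 1 place were set aside, so the levels of this pair may be too low.

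Other mitotic motors bind chromosomes or act on microtubule ends. Kif22 (Kid) pushes chromosome arms away from the poles, and had 7605, 7936 and 6433 normalized counts in +Dox, 728 and 766 in -Dox, and 341, 129 and 47.5 in satellite cells. The 3 groups did not overlap, and withdrawal lowered it by a factor of 9.80 (log2 fold change -3.29, SE 0.700, adjusted p = 0.021). Kif4, a chromokinesin that also works with Prc1 at the midzone, had 3872, 3514 and 1377 in +Dox, 177 and 224 in -Dox, and 205, 65.7 and 59.3 in satellite cells. Its log2 fold change was -3.86 (SE 0.726, adjusted p = 0.0114), and 15.1% of its exon bases are shared with Pdzd11. Kif18a dampens the movements of chromosomes at the metaphase plate. Its normalized counts of 1373, 1113 and 873 in +Dox stood against 136 and 138 in -Dox and 79.0, 247 and 393 in satellite cells (log2 fold change on withdrawal -3.03, SE 0.700, adjusted p = 0.0302). Kif18b shortens astral microtubules and had 990, 863 and 616 in +Dox, 87.3 and 71.1 in -Dox, and 0, 1.34 and 5.28 in satellite cells. It fell by 3.38 on the log2 scale (SE 0.847, adjusted p = 0.0419). Kif2c (MCAK), a depolymerase that corrects attachments at centromeres, had 6854, 6394 and 5999 in +Dox, 464 and 582 in -Dox, and 199, 1.34 and 2.64 in satellite cells. Within iPax7 cells its libraries lay close together, and its change of -3.62 (SE 1.42, adjusted p = 0.174) did not pass in the fit over all libraries. With the iPax7 libraries alone in the fit, the adjusted p was 2.26e-04. In satellite cells library 1 stood far above the other two libraries.

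Another set acts in anaphase and cytokinesis. Kif20a (Mklp2), which brings the Aurora B complex to the midzone, had the highest normalized counts of the mitotic motors in +Dox, with 10335, 8531 and 8686 in +Dox, 618 and 776 in -Dox, and 448, 488 and 128 in satellite cells. The change was a factor of 13.2 (log2 fold change -3.72, SE 0.564, adjusted p = 0.00377), and 32.3% of its exon bases are shared with Cdc23. Kif23 (Mklp1) forms centralspindlin with Racgap1. It had 6884, 4642 and 4123 in +Dox, 340 and 468 in -Dox, and 203, 605 and 76.5 in satellite cells, and fell by 3.69 on the log2 scale (SE 0.796, adjusted p = 0.0224). Kif20b (Mpp1), needed for the last steps of cytokinesis, had 4632, 3670 and 1523 in +Dox, 539 and 462 in -Dox, and 64.5, 59.0 and 83.1 in satellite cells. Its +Dox library 3 was the lowest of that group, as in all tested mitotic motors but Kif14, Kif20a and Kifc1. That library still stood above both -Dox libraries (log2 fold change of Kif20b -2.71, SE 0.505, adjusted p = 0.011). Kif14, a midbody motor that binds Prc1 and citron kinase, had 1161, 595 and 647 in +Dox, 81.8 and 105 in -Dox, and 0, 142 and 43.5 in satellite cells. The groups of iPax7 cells did not overlap, and the change of -3.10 (SE 1.41) did not pass (adjusted p = 0.242). With the iPax7 libraries alone the adjusted p was 0.00502.

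How many of the 13 passed depended on single libraries. Without -Dox replicate 1, edgeR called 0 (9 had an unadjusted p under 0.05, and DESeq2 called 9 on the same libraries), and without -Dox replicate 2 it called 1. Without +Dox replicate 1 or 2 it called 4 or 5. In each of these fits all 13 log2 fold changes stayed below 0, with medians between -3.61 and -3.26.

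Partners of the mitotic motors were also lower. Of 12 partners, the motor Cenpe among them, 11 passed the test in -Dox. Nusap1, a spindle microtubule bundler, was not called (log2 fold change -3.65, adjusted p = 0.0964). The largest changes belonged to Hmmr, a spindle pole adaptor (-4.38, adjusted p = 0.0225), Racgap1, the other protein of centralspindlin (-4.33, adjusted p = 0.00515), and Incenp, the scaffold of the Aurora B complex (-4.07, adjusted p = 0.0433). Hmmr had 5927, 5896 and 3722 normalized counts in +Dox against 175 and 323 in -Dox. Racgap1 had 2725, 3017 and 3760 against 50.5 and 265, and Incenp had 739, 1136 and 795 against 90.1 and 15.7. None of these 3 overlapped between the conditions, which held for 45.3% of all genes. Racgap1 was highest in +Dox library 3, where its partner Kif23 was lowest. All 5 general proliferation genes (Mki67, Top2a, Ccnb1, Cdk1 and Pcna) were lower in -Dox as well. Their summed normalized counts ranged from 61755 to 74797 in +Dox and from 7973 to 8068 in -Dox. The mitotic motors summed to 34438 to 50654 and to 3664 to 3870. The part of the proliferating share of cells in the change of the motors was not tested.

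Most transport motors did not pass the test. Of 15 tested, 1 was higher in -Dox (4.66% of all genes were higher) and 0 were lower (edgeR, 0 at an unadjusted p under 0.05, and 0 by DESeq2). The median log2 fold change was 1.04, with 11 values above 0 and 4 below. The gene called was Kif1b, a carrier of mitochondria and synaptic vesicle precursors. Its normalized counts were 4137, 2782 and 1729 in +Dox, 8983 and 8348 in -Dox, and 4393, 7762 and 5426 in satellite cells. The -Dox libraries were the highest of all (log2 fold change 1.59, SE 0.382, adjusted p = 0.0358), and the call was lost without +Dox replicate 2 or 3, either -Dox replicate or satellite cell replicate 3. At an unadjusted p under 0.05, 5 transport motors were higher, and DESeq2 called 2.

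**Figure D2:**
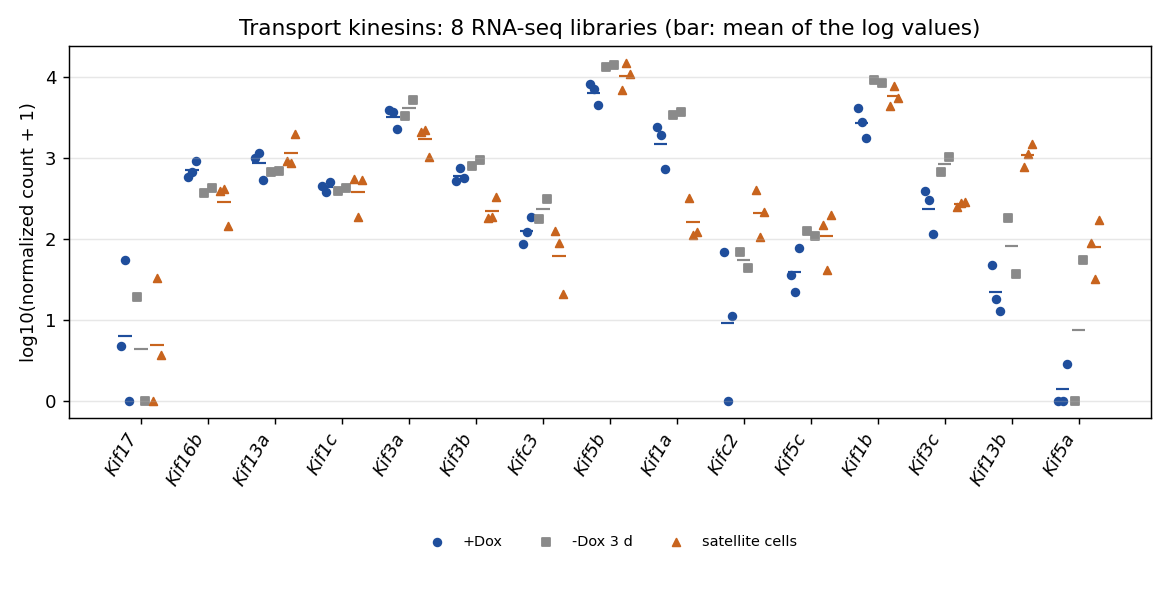
Each point is 1 RNA-seq library, as log10(normalized count + 1), for the 15 transport motors, ordered by the fold change on Dox withdrawal; short bars are group means of the log values. Kif5b, Kif1b and Kif3a lie high in all 3 groups, and Kif5a and Kif13b have their highest group mean in satellite cells.

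Kif5b, the ubiquitous heavy chain of conventional kinesin, had the highest normalized counts of the transport motors. They were 8018, 7100 and 4463 in +Dox, 13017 and 13844 in -Dox, and 6847, 14786 and 10799 in satellite cells. The iPax7 groups did not overlap, and the log2 fold change of 1.04 (SE 0.358) had an adjusted p of 0.119. With the iPax7 libraries alone it was 0.0419. Kif3a, a subunit of the heterotrimeric kinesin that builds cilia, had 3919, 3609 and 2257 in +Dox, 3275 and 5105 in -Dox, and 2101, 2216 and 1016 in satellite cells. Its +Dox and -Dox values overlapped (log2 fold change 0.36, adjusted p = 0.706). Its partner Kif3b had 516, 740 and 560 in +Dox, 790 and 942 in -Dox, and 178, 182 and 323 in satellite cells. The -Dox libraries were higher than +Dox without passing the test (0.52, adjusted p = 0.596).

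Kif1a, a carrier of synaptic vesicle precursors best known from neurons, was well expressed in iPax7 cells, with 2368, 1917 and 728 normalized counts in +Dox and 3333 and 3617 in -Dox. Satellite cells had 320, 110 and 120. The change on withdrawal was 1.06 (SE 0.569, adjusted p = 0.330). The pan-neuronal transcripts Syt1 and Elavl4 had no count in any iPax7 library, while the neurofilament Nefl had 1758 to 2150 in +Dox and 344 to 484 in -Dox. Tubb3, the neuronal tubulin, had 27.8, 45.9 and 71.0 in +Dox and 360 and 268 in -Dox without overlap, and its change did not pass (log2 fold change 2.70, adjusted p = 0.0644). The 8 neural markers summed to 3106 to 3719 in +Dox, 898 to 1064 in -Dox and 4725 to 6576 in satellite cells. Most of the satellite cell sum was Map2 (4379, 5267 and 6068), and Nefl had at most 2.68 there. Stmn2 had means of 1065 in +Dox and 120 in -Dox (adjusted p = 0.00436). The part of the neural markers in the level of Kif1a was not tested. Kif5a, the neuronal heavy chain, had 0, 0 and 1.82 in +Dox and 0 and 53.5 in -Dox. Its 2 -Dox libraries thus disagreed, and 1 of them carried the whole signal.

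Of 9 tested motors with other roles, 0 were called by edgeR on Dox withdrawal in either direction, 1 had an unadjusted p under 0.05, and DESeq2 called 0. Kif2a, a depolymerase of microtubule ends, was the most abundant, with 3839 to 4542 normalized counts in +Dox, 2201 to 2528 in -Dox and 1542 to 3676 in satellite cells. Kif26b, an atypical kinesin of mesenchymal tissue, ranged from 96.5 to 267 in +Dox and from 33.2 to 46.9 in -Dox. In 3 of the 9 tested, Kif2a and Kif26b among them, the 2 iPax7 groups did not overlap, against 45.3% of all genes. Among the helpers of transport, 0 of 11 tested partners (light chains, adaptors of mitochondria and cargo, and Kifap3) and 0 of 11 tested subunits of dynein and dynactin, the minus-end motor, were called by edgeR. At an unadjusted p under 0.05 these numbers were 1 and 3, and DESeq2 called 1 in each list. Their median log2 fold changes were 0.56 and 0.67.

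**Figure D3:**
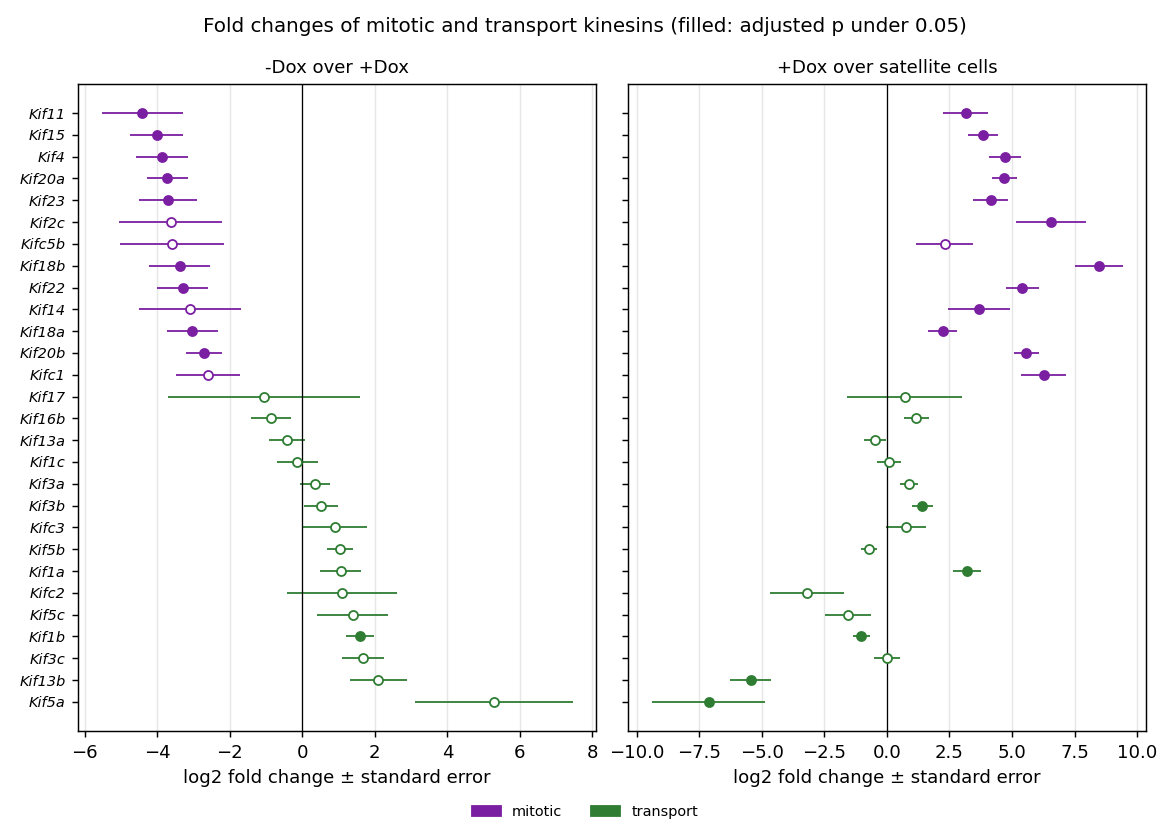
Log2 fold changes with SE of the 13 mitotic and 15 transport motors, for -Dox over +Dox (left) and +Dox over satellite cells (right); filled points have an adjusted p under 0.05, and the axes differ in range. Mitotic motors lie between -4.41 and -2.59 on the left and between 2.22 and 8.47 on the right, while transport motors lie on both sides of 0.

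To compare levels between genes, normalized counts were divided by exon length in kb. On this scale Kif22 was the highest kinesin in each +Dox library, with a mean of 3551 per kb, followed by Kif20a (2359), Kif2c (1461), Kif23 (1331) and Kif5b (883). Kif22 and Kif20a did not overlap across libraries, whereas Kif2c and Kif23, and Kif23 and Kif5b, did. The exon length of Kif20a includes the 32.3% of bases shared with Cdc23. If reads there were not counted, its level per kb is too low, so the order of Kif22 and Kif20a is not settled. In both -Dox libraries Kif5b was the highest (mean 1816 per kb), with Kif3a second (714). Kif5b was highest in all satellite cell libraries too (1462). Mitotic motors made up 78.7% to 79.8% of the motor level per kb in +Dox, 18.1% to 18.7% in -Dox and 7.34% to 16.6% in satellite cells. Transport motors made up 13.6% to 16.6%, 71.8% to 73.4% and 72.9% to 78.8%.

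**Figure D4:**
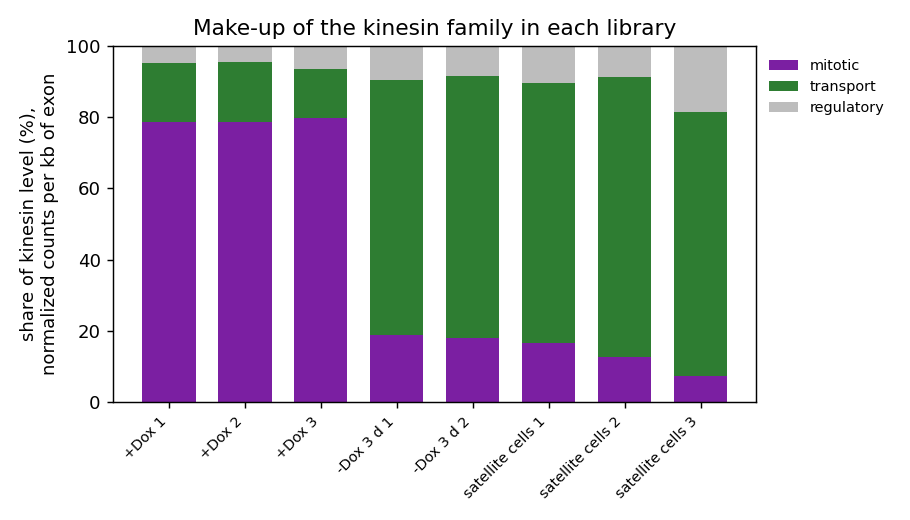
Stacked bars give, for each of the 8 libraries, the share of the summed kinesin level (normalized counts per kb of exon) held by mitotic, transport and other motors. The mitotic share is near 79% in the 3 +Dox libraries, and below 19% in all -Dox and satellite cell libraries.

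The comparison of +Dox cells with satellite cells sets cultured precursors beside cells taken from muscle, and both express Pax7. Of 13 mitotic motors, 12 were higher in +Dox (19.8% of all genes were higher, and 44.9% differed), with a median log2 fold change of 4.69, where all genes had a median of -0.17. No mitotic motor overlapped between the groups, which held for 56.5% of all genes. The largest differences, in the values given above, were those of Kif18b (8.47, SE 0.952, adjusted p = 1.57e-04), Kif2c (6.56, SE 1.39, adjusted p = 0.00451) and Kifc1 (6.26, SE 0.915, adjusted p = 6.37e-04). Kif18b had at most 5.28 normalized counts in satellite cells. Kif20b (5.57), Kif22 (5.41) and Kif4 (4.73) came next, and Kifc5b (2.30, adjusted p = 0.128) was not called. All 12 mitotic partners were higher in +Dox, with Plk1, the mitotic kinase (5.79), Hmmr (5.34) and Aurkb (5.22) in the lead. Plk1 had 6056, 6279 and 7544 normalized counts in +Dox and 265, 81.8 and 11.9 in satellite cells, and Aurkb had 3526, 3391 and 3476 against 136, 72.4 and 71.2. Pcna, the replication clamp, did not follow: its mean was 10190 in +Dox and 9250 in satellite cells.

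Transport motors differed in both directions between +Dox and satellite cells, with 2 higher and 3 lower in +Dox (25.1% of all genes were lower) and a median of 0.0055. Higher were Kif1a (3.19, SE 0.565, adjusted p = 0.00175) and Kif3b (1.41, SE 0.421, adjusted p = 0.0226). Lower were Kif13b, Kif1b (-1.02, SE 0.349, adjusted p = 0.0383) and Kif5a. Kif13b, a vesicle motor that binds membrane scaffolds, had 46.6, 17.0 and 11.8 normalized counts in +Dox, 181 and 36.0 in -Dox, and 773, 1094 and 1456 in satellite cells. Satellite cells stood above all iPax7 libraries, and the log2 difference was -5.45 (SE 0.837, adjusted p = 8.27e-04). Kif5a had 88.2, 30.8 and 171 in satellite cells against at most 1.82 in +Dox (adjusted p = 0.0295). Among the other roles, Kif26a, which lacks motor activity, had no count in +Dox and 7.90, 14.7 and 71.2 in satellite cells (adjusted p = 0.0382), and Kif26b was higher in +Dox (4.63, adjusted p = 0.0299). Together these were 7 of the 24 non-mitotic motors tested, where 44.9% of all genes differed. Without +Dox replicate 2 the number was 2, and without satellite cell replicate 2 or 3 it was 4.

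Markers of other cells also differed between iPax7 and satellite cells. The 4 endothelial markers were all lower in +Dox and summed to 11381 to 18324 normalized counts in satellite cells, 5.18 to 166 in +Dox and 0.919 to 22.2 in -Dox, Cdh5 being at 0 in all iPax7 libraries. The 4 mesenchymal markers summed to 38819 to 63474 in satellite cells, 27.8 to 102 in +Dox and 917 to 954 in -Dox. The 5 blood markers summed to 672 to 2608 in satellite cells, 158 to 464 in +Dox and 181 to 206 in -Dox, with Ptprc at 0 in iPax7 cells. Sox10, a factor of Schwann cells, had 61.9, 71.0 and 2.64 in satellite cells and 0 in all iPax7 libraries. The part of these cells in the levels of Kif13b, Kif5a, Kif26a and Kif1b was not tested.

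Among the helpers of transport, 8 of 11 tested partners had values below 0 here, with a median log2 difference of -1.18. By edgeR 3 partners were lower in +Dox, beside 25.1% of all genes. Subunits of dynein went both ways. Trak1 (-2.18, adjusted p = 0.00235), Mapk8ip3 (-1.99, adjusted p = 0.00282) and Trak2 (-1.64, adjusted p = 0.0387), which link kinesin to mitochondria or vesicles, were lower in +Dox, and DESeq2 called 6 partners lower. By edgeR and by DESeq2 0 of 11 partners were higher, and 1 was at an unadjusted p under 0.05. Trak1 had 771, 526 and 1125 normalized counts in +Dox against 2626, 4452 and 3887 in satellite cells. Mapk8ip3 had 1605, 1448 and 598 against 3827, 4934 and 5754, and Trak2 had 1596, 1286 and 299 against 2105, 4784 and 3052. None of these 3 overlapped between the groups, which held for 56.5% of all genes. In the dynein motor 3 subunits were higher and 1 lower, led by the intermediate chain Dync1i1 (3.15, adjusted p = 0.0324). These 4 of 11 stand beside the 44.9% of all genes that differed.

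Between -Dox and satellite cells, fewer mitotic motors differed. Of 13, 4 were higher in -Dox (18.1% of all genes were higher, and 39% differed), namely Kif18b (5.09, SE 0.890, adjusted p = 0.00194), Kifc1 (3.67, SE 0.863, adjusted p = 0.00882), Kif20b (2.86, SE 0.466, adjusted p = 0.00135) and Kif22 (2.11, SE 0.610, adjusted p = 0.0221). The median over the 13 was 0.87, and that of all genes -0.23. In 6 of the 13 the groups did not overlap (64.3% of all genes). Kif11, Kif14, Kif15, Kif18a, Kif23, Kif4 and Kifc5b overlapped between -Dox and satellite cells, and Kif2c (2.95, adjusted p = 0.0883) and Kif20a (0.98, adjusted p = 0.127) did not overlap and did not pass. With only these 2 groups in the fit, 2 mitotic motors were called. Of the mitotic partners, only Aurkb was called (1.43, adjusted p = 0.0258) of 12.

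Of 24 non-mitotic motors tested, 5 differed between -Dox and satellite cells, as did 39% of all genes. Among the 15 transport motors, 4 were higher in -Dox than in satellite cells (18.1% of all genes were higher). These were Kif1a (4.24, SE 0.615, adjusted p = 7.33e-04) and 3 motor subunits of the kinesin-2 group, Kif3a (1.24, SE 0.407, adjusted p = 0.0373), Kif3b (1.93, SE 0.458, adjusted p = 0.00921) and Kif3c (1.68, SE 0.577, adjusted p = 0.0438). Their shared non-motor subunit Kifap3 was higher as well (2.46, SE 0.599, adjusted p = 0.0103), with 3330 and 3758 normalized counts in -Dox against 810, 165 and 960. Kif3a, Kif3b, Kif3c and Kifap3 had no overlap between the groups, which held for 64.3% of all genes. Kif17, a further kinesin-2 motor with mean normalized counts of 9.19 in -Dox and 11.6 in satellite cells, was not called (-0.33, adjusted p = 0.935). The light chain Klc1 (2.08, adjusted p = 0.00701) was the other partner that was higher, with 1351 and 1050 against 300, 192 and 360. Kif13b was the 1 transport motor that was lower (-3.35, SE 0.893, adjusted p = 0.0156; 20.9% of all genes were lower), beside the partners Trak1 (-2.22), Trak2 (-1.85) and Mapk8ip3 (-1.43). Non-mitotic motors called numbered 5, and 3 without -Dox replicate 1 or satellite cell replicate 3, and 1 without -Dox replicate 2.

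Dynein subunits were higher in -Dox than in satellite cells in 5 of 11 tested, and 0 were lower by edgeR, at an unadjusted p under 0.05 or by DESeq2, which called 4 higher. Over all genes 18.1% were higher and 39% differed. Dync1i1 differed most (5.97, SE 1.20, adjusted p = 0.00396), with 4460 and 5036 normalized counts in -Dox against 3.95, 16.1 and 207 in satellite cells and 541 to 849 in +Dox. Dync1i2, the other intermediate chain, had 19612 and 18809 against 4867, 6573 and 6629 (1.67, adjusted p = 7.45e-04). The light chain Dynll1 had 39586 and 35673 against 13327, 16381 and 16529 (1.29, adjusted p = 0.00375). Each of these 3 stood higher in both -Dox libraries than in any satellite cell library, and 64.3% of all genes did not overlap in this comparison.

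At the promoters, peaks were read within 1 kb of any annotated start on NCBIM37 for 42 family members, 14 of them mitotic and 15 transport motors. ATAC-seq and histone peak sets came from merged replicates, so that no error can be given for presence or absence of a peak. The read depth behind the sets is unknown. ATAC-seq peaks, which mark open chromatin, stood at 12 of 14 mitotic motors in +Dox, after 12 h, 24 h and 3 days of withdrawal, and in satellite cells, Kif14 and Kif2b having none. The share over all genes was 65.6% in +Dox, 63.6%, 66.8% and 68.2% at the 3 times of withdrawal, and 60.7% in satellite cells. The highest fold enrichment at a mitotic promoter was that of Kifc1 in +Dox (79.6) and at 3 days (72.6), and the lowest that of Kif22 (12.6 and 9.34). Peaks of open chromatin stood at the same 12 mitotic promoters with Dox and after its withdrawal. Transport motors had a peak at 15 of 15 in +Dox and 14 of 15 at 3 days, Kif5a being without.

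H3K27Ac, an acetylation of active promoters and enhancers, differed more. In +Dox 12 mitotic motors carried a peak, and at 3 days 7 did, with none left at Kif18a, Kif22, Kif2c, Kifc1 and Kifc5b. These 5 of 12 (41.7%) compare with 10.5% of all genes that had a peak in +Dox. Among such genes called lower in RNA on withdrawal, 29.1% lost it. Of the 5, Kif18a and Kif22 were called lower, and Kif2c, Kifc1 and Kifc5b were not (adjusted p = 0.174, 0.117 and 0.181). The 41.7% and the 29.1% thus cover unlike sets of genes, and the near copies Kifc1 and Kifc5b were counted separately. The 7 that kept a peak (Kif11, Kif15, Kif18b, Kif20a, Kif20b, Kif23 and Kif4) were all called lower in RNA. Transport motors lost 0 of 12 and gained 1, at Kif1a. Among motors with other roles the peak at Kif26b was absent at 3 days. Over all genes, 50.2% had an H3K27Ac peak in +Dox and 47.2% at 3 days, from sets of 119528 and 90168 peaks.

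**Figure D5:**
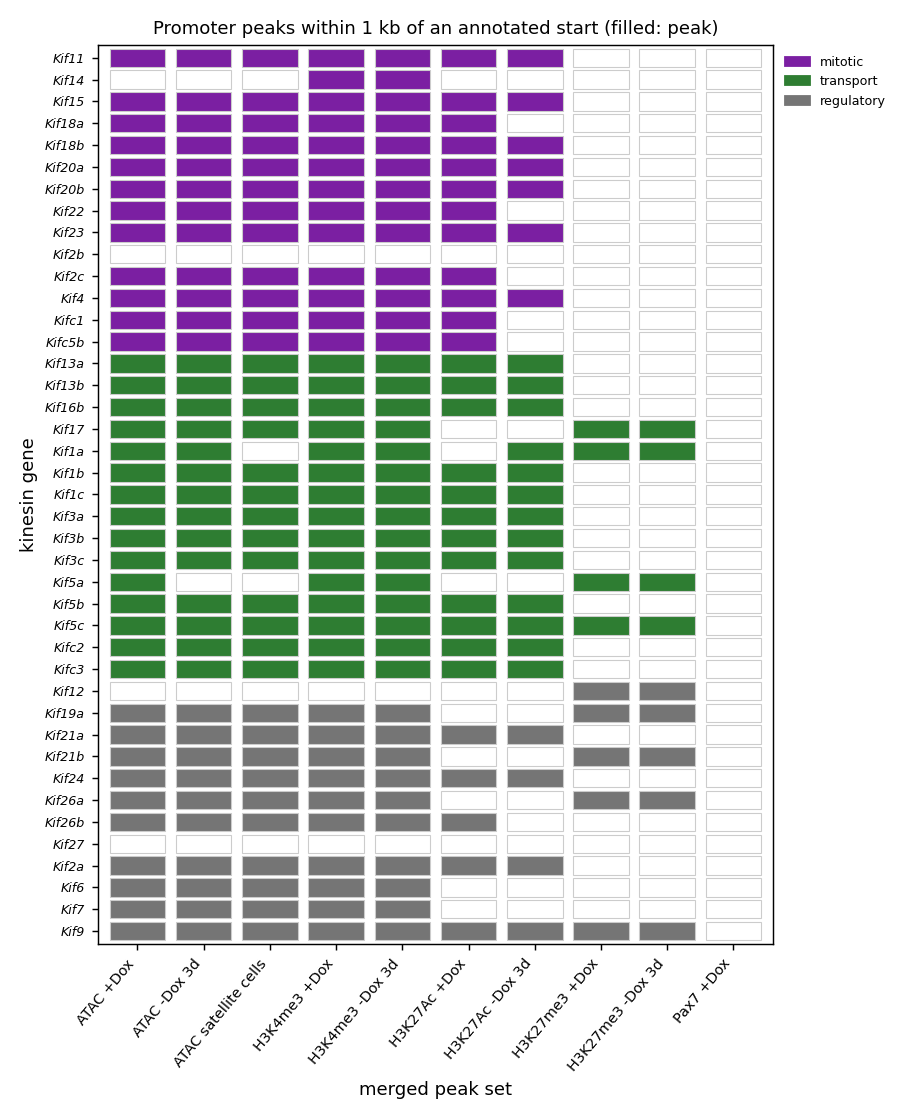
Filled squares mark a peak within 1 kb of an annotated start, for each mitotic, transport and other motor (rows) in 10 peak sets (columns). The H3K27Ac columns differ at 5 mitotic motors and at Kif26b, which lack the peak after withdrawal, and at Kif1a, which has it then.

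H3K4me3, a mark of promoters, stood at 13 of 14 mitotic motors in both conditions, Kif2b being without, and at 62.7% of all genes in +Dox and 68.7% at 3 days. H3K27me3, the Polycomb mark, was called at 0 of 14 mitotic motors in either condition, against 23.1% and 21.1% of all genes. It was called at 4 transport motors, Kif17, Kif1a, Kif5a and Kif5c, in both conditions, and at Kif12, Kif19a, Kif21b, Kif26a and Kif9 among the others. Kif1a carried both H3K27me3 and H3K4me3 peaks in each condition. Merged peaks from a population do not show whether the 2 marks sit on the same alleles. For Pax7, the authors kept peaks found in 2 or more +Dox samples and removed those found in any replicate without Dox. The paper expects this list to miss some sites. No Pax7 peak of this list lay within 1 kb of a start of any of the 42 members (1.64% of all genes had one). Within 100 kb, 9 of 42 members had a Pax7 site (19.5% of all genes), and none of the 9 was mitotic. The site's nearest gene was the kinesin itself at Kif21b (8.84 kb from its start), Kif13a (20.0 kb) and Kif21a (42.6 kb).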

How the data were processed

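RNA-seq of 8 libraries in 3 groups and ATAC-seq and ChIP-seq peak sets were used. The authors deposited counts of reads per gene symbol without normalization, one table per library. Submitters' processing notes name Trimmomatic 0.32, TopHat2 2.0, HTSeq 0.6 and mm9 without roles, and the annotation and the strand setting of the counting are not given in the sources used here. Rows that name no gene held 9.19% to 32.4% of reads and were left out. The deposited ATAC-seq peaks give a fold enrichment (ratio) and a −log10 q-value from the authors' MACS2, the ChIP-seq peaks positions only. ATAC-seq and histone peaks came from merged replicates, and Pax7 peaks were called per replicate and then filtered. Peak sets of H3K4me1, myotubes and C2C12 cells were not used here.

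Counts were tested in edgeR 4.0.16 (R 4.3.3; TMM, filterByExpr, 1 mean per group over all libraries), with DESeq2 1.42.0, other filters, scalings and subsets of libraries as alternatives. An exact permutation test of 3 against 2 libraries cannot give a p below 0.1. SE was taken as the log2 fold change over the root of the F statistic. The scripts were tested on simulated data. Libraries of a group all differed by more than sampling noise. Starts, exon lengths and overlaps come from GENCODE M1 on NCBIM37 (42 of 44 symbols matched), promoter sequences from RefSeq on GRCm38.p6 (34 matched). Peaks above the median fold enrichment served as the stricter ATAC-seq set.

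The members and gene lists were chosen with earlier results of these data known. Values of every library are given for the 6 members per direction and comparison with the largest change among those called and not overlapping, all mitotic members tested, the 3 transport members with the highest mean, and 3 genes per direction of each partner list; promoters are those of up to 4 such members with TTTGAA before the start and 2 transport members without it. Medians over all genes in comparisons with satellite cells differed from 0, and fold changes there are to be read against them. Part of one list of cell type markers is not reported here.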

Additional observations from a re-analysis of the deposited data

How the results depend on the processing

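Among the 6 counts of mitotic and non-mitotic motors called, the mitotic ones moved by no more than 1.5 times for Dox withdrawal (DESeq2 11, only the iPax7 libraries 12, against 9) and for +Dox against satellite cells, apart from single libraries left out. Non-mitotic motors called on Dox withdrawal numbered 1, and 2 by DESeq2 and 3 with only the 2 groups compared. Mitotic motors called between -Dox and satellite cells numbered 4, and 2 with only the 2 groups compared. With 1 library left out, mitotic counts ranged from 0 to 11 for Dox withdrawal, from 11 to 12 for +Dox against satellite cells and from 3 to 6 for -Dox against satellite cells, and non-mitotic counts from 0 to 1, from 2 to 8 and from 1 to 5. A lone -Dox library was assumed to vary like the other groups. DESeq2 without either -Dox library, chosen after seeing the data, called 9 mitotic motors. With 1 library left out, the log2 fold change of Kif5a on withdrawal ranged from -2.52 (without -Dox replicate 2) to 7.77. Between -Dox and satellite cells, that of Kif15 ranged from -0.53 to 0.60 (without satellite cells replicate 1; 0.065 without -Dox replicate 2) and that of Kif23 from -0.0021 (without satellite cells replicate 3) to 1.53. The cause was not tested. Over all genes the number called on withdrawal was 1142, 2275 by DESeq2 and 2155 with only the iPax7 libraries. Counts of members with a promoter peak moved by less than 1.5 times with windows of 500 bases or 2 kb, a stricter peak threshold or a larger overlap. By role, H3K27me3 peaks in +Dox fell from 4 to 2 transport motors with the larger overlap, and those at motors with other roles fell from 5 to 3 with 500 bases in both conditions.

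Deviations of libraries with the same number had correlations from -0.0398 to 0.0272, and those with unlike numbers from -0.0404 to 0.0537. With only 2 -Dox libraries, their correlations are mirror images (-0.0228 and 0.0228 with +Dox library 1). These values thus cannot exclude that the numbers pair the libraries. Blocking on the number raised the genes called on withdrawal from 2155 to 4017, each fit holding only the groups compared. It lowered them from 5987 to 5073 for +Dox against satellite cells. For -Dox against satellite cells they went from 5424 to 4834. With the replicate number as a block, 13 mitotic and 6 non-mitotic motors were called on withdrawal, and 1 and 3 between -Dox and satellite cells, where Kif18a turned sign (0.018).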
